A study of Homo sapiens with 14 samples.

Results

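COASY and the other genes of coenzyme A synthesis, PANK1, PANK2, PANK3, PANK4, PPCS and PPCDC, were examined for alternative splicing in HEK293T cells with or without mutant SF3B1. Their events were taken from the splicing table by gene symbol, for every event type, and an event was kept when the mean junction reads of WT and MT averaged at least 10. The table lists 48 events of these 7 genes among 114349 events, and 43 of the 48 had at least 10 reads. COASY was chosen because its inclusion levels differed between MT and WT in this table, so its MT and WT levels are given below as a description without a p value.

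HEK293T is a human embryonic kidney epithelial line, and its SF3B1-WT and SF3B1-MT isogenic cells were each represented by 3 RNA-Seq libraries. MT carries the K700E change in SF3B1, a core part of the U2 snRNP that recognizes the branch point, at the endogenous gene, and WT carries K700K, the same residue unchanged. Nalm-6, a human leukemic B cell line, provided 2 WT (K700K) and 2 MT (K700E) libraries of DRIP-Seq from untreated DNA and as many from DNA treated with RNase H1, an enzyme that digests the RNA of DNA:RNA hybrids. Junction reads of the RNA-Seq libraries, over 89049 events with intact counts, totalled from 4000681 to 5364717. Whether the libraries of a group came from separate cultures or clones is not given in the sources used here, so a p value measures the spread between these libraries, which may be technical. The splicing table has no expression levels, and the labelled cell type could be checked only through events: 1 of 6 HEK293T markers (EYA1) and 0 of 5 B cell markers had an event of at least 10 reads.

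Coenzyme A carries acyl groups in the tricarboxylic acid cycle, fatty acid metabolism and protein acetylation. Cells make it from pantothenate, vitamin B5. Pantothenate kinases (PANK1, PANK2 and PANK3) phosphorylate pantothenate in the step that limits the rate, PPCS joins the product to cysteine, PPCDC removes a carboxyl group, and the bifunctional enzyme COASY carries out the closing steps, adenylation and phosphorylation. PANK4 resembles the kinases but is regarded as lacking their activity. Mutant SF3B1 is known for changing the choice of 3′ splice sites.

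The COASY events that differed all lie at the start of the gene, at chr17:42561467-42566277 on the plus strand (hg38). In the first of them, an exon that ends at position 42562219 can be joined to a second exon whose long form starts at 42562296 and whose short form starts at 42562356, both ending at 42562487. The forms differ by 60 bases. The first exon can also be joined directly to the coding exon that starts at 42562612, across 392 bases. The stretch from 42562220 to 42562355 is a 136-base intron for the short form, with a GC content of 58.1% and 0 ATG triplets.

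GENCODE release 44 has 14 COASY transcripts, of which 2 use the junction to the short form, 1 the junction to the long form and 1 the junction to the coding exon. Another 3 have an exon that runs across the whole 136-base stretch. Annotated start codons lie at 42562412 in the second exon (4 transcripts) and at 42562623 in the coding exon (5 transcripts), and 0 lie upstream of the short form, so the 136-base intron is in the 5′ UTR. No other annotated gene overlaps the region.

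The 3 acceptors and the donor are shown because the MT and WT libraries differ in the reads that join this donor to the short-form acceptor. As given below, no reads reached the long-form acceptor, and reads to the coding-exon acceptor overlapped between the groups. Each acceptor window holds 25 intron bases and 5 exon bases, 5′ to 3′ on the plus strand of hg38, with the AG that ends the intron in capitals, and the donor window holds 12 bases with the GT that begins the intron in capitals. The windows are chr17:42562331-42562360 for the short form, chr17:42562271-42562300 for the long form, chr17:42562587-42562616 for the coding exon and chr17:42562214-42562225 for the donor.
Short-form acceptor: ccctgtgacaagggttcctgtccAGtttcc
Long-form acceptor: cgattccttgaagaccctggtgcAGcttag
Coding-exon acceptor: gcctcgtctccctgactgtccgcAGgcctg
Donor: gtttcaGTgagt

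The tract before the acceptor AG, scored over 20 bases, held 11 pyrimidines at the short form, 12 at the long form and 15 at the coding exon. It held 3 adenines at the short form, 3 at the long form and 1 at the coding exon. Among the 5351 alternative 3′ splice site events tested, both sites ended in AG in 98.5%, the median downstream site had 14 pyrimidines, and 14.7% of downstream sites had no more than the 11 of the COASY short form. The COASY pair of sites was 60 bases apart, against a median of 48.

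The inclusion level, a fraction from 0 to 1, is the share of the longer form after the reads are divided by the length of each form. For the alternative 3′ splice site of COASY, with the long form as inclusion, it was 0.945, 0.971 and 1.000 in WT, against 0.319, 0.624 and 0.608 in MT. The MT libraries all lay below the WT libraries, and MT 1 was the lowest. The means were 0.972 ± 0.0275 (SD, n = 3) in WT, against 0.517 ± 0.172 (SD, n = 3) in MT, a difference of -0.455 at 100 mean reads.

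The retained intron event of COASY, which covers the same 136 bases, had levels of 0.975, 0.981 and 1.000 in WT, against 0.506, 0.723 and 0.725 in MT. These levels again did not overlap. The means were 0.985 ± 0.0131 (SD, n = 3) and 0.651 ± 0.126 (SD, n = 3), and the difference was -0.334 at 204 mean reads. In both events the inclusion level was lower in MT.

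The short-form second exon was the COASY event with higher levels in MT. Its inclusion level counts reads of the junctions on both sides. Summed over libraries, the junction from the first exon had 109 reads in MT and 6 in WT. The junction from the second exon to the coding exon had 15 in MT and 8 in WT. The level in MT thus rests mostly on the first of these junctions. Its inclusion between the first exon and the coding exon was 0.150, 0.143 and 0 in WT, against 0.653, 0.429 and 0.526 in MT. All 3 MT libraries were above all 3 WT libraries, with means of 0.0977 ± 0.0847 (SD, n = 3) and 0.536 ± 0.112 (SD, n = 3), a difference of 0.438 at 43.1 mean reads. The long-form second exon, at 23.1 mean reads, had levels of 0.056, 0.111 and 0 in WT, against 0.188, 0.059 and 0.132 in MT, and its groups overlapped. No read joined the first exon to the long form. These levels thus rest only on the junction from the second exon to the coding exon, which the short form shares, and do not measure the long form.

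**Figure D1:**
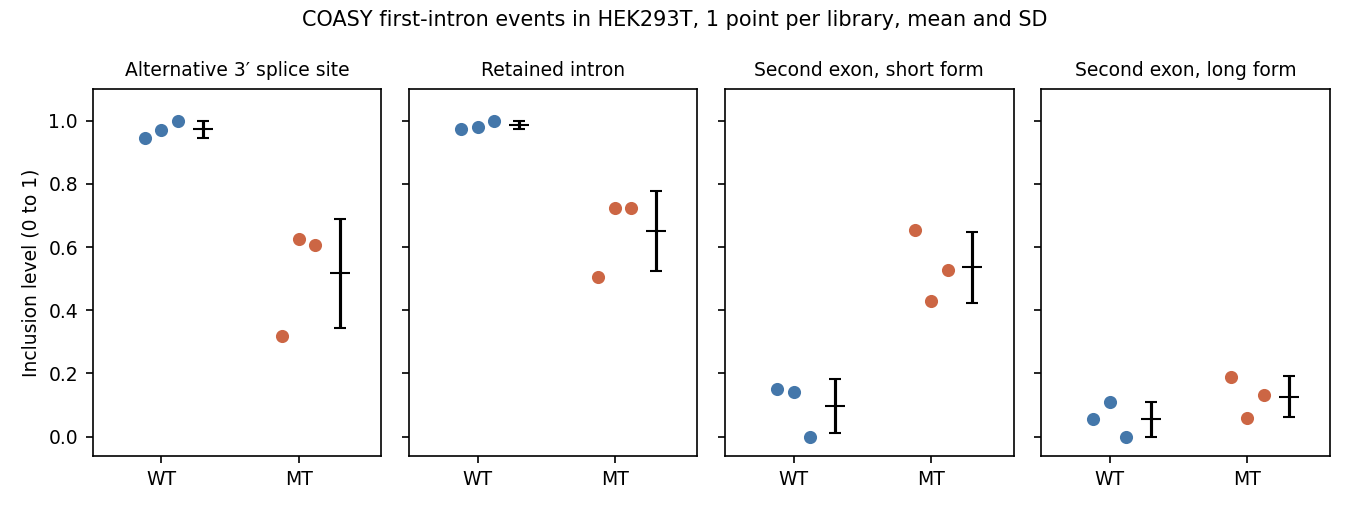
Inclusion level (0 to 1) of 4 COASY events in the 3 WT and 3 MT HEK293T libraries, 1 point per library, with the mean and SD beside the points. MT lies below WT for the alternative 3′ splice site and the retained intron, above WT for the short-form second exon, and overlaps WT for the long form. The long-form level holds no read spliced to the long-form acceptor.

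Across all events, limma on the transformed levels tested 83581 events and called 26 (adjusted p under 0.05 and a difference above 0.1, with Benjamini-Hochberg adjustment), a share of 0.0311%, with 11 higher (0.0132%) and 15 lower (0.0179%) in MT. Of the 41 events of coenzyme A synthesis genes that were tested, 3 were called, 1 higher and 2 lower, and all 3 were the COASY events above. Since the rule used this contrast, nothing is read from that count. The COASY calls fell to 0 without MT 1, without MT 2, without WT 3, with a logit transform and without a variance trend. In size of difference, the alternative 3′ splice site was at rank 5 of 5351 events of its type, the retained intron at rank 13 of 3514 and the short-form exon at rank 7 of 55825. COASY was chosen by these same differences, so the ranks are a description and nothing is read from them either.

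The 3 called COASY events are not separate measurements. The alternative 3′ splice site and the retained intron have identical exclusion reads, those that join the first exon to the short form, and the exon event includes the same reads. Junction reads were therefore taken apart by subtracting the events' counts from each other, a step chosen after the values were seen. Counts are of reads without molecular identifiers, so the intervals below cover counting error only.

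Reads joining the first exon to the short form numbered 4, 2 and 0 in WT, against 43, 22 and 44 in MT. Every MT library had at least 22 of these reads and no WT library had more than 4. Reads joining the first exon directly to the coding exon numbered 17, 24 and 22 in WT, against 13, 16 and 23 in MT. Here the groups overlapped.

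Of the reads that left the first exon, the share joined to the short form in WT was 19% (95% Wilson interval 7.67 to 40.0, 21 reads), 7.69% (2.14 to 24.1, 26 reads) and 0% (0 to 14.9, 22 reads). By the limit of 3 counts, 0 of 22 reads allows a share of up to 13.6%. In MT it was 76.8% (64.2 to 85.9, 56 reads), 57.9% (42.2 to 72.1, 38 reads) and 65.7% (53.7 to 75.9, 67 reads). The means were 8.9% ± 9.56 (SD, n = 3) in WT, against 66.8% ± 9.5 (SD, n = 3) in MT.

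**Figure D2:**
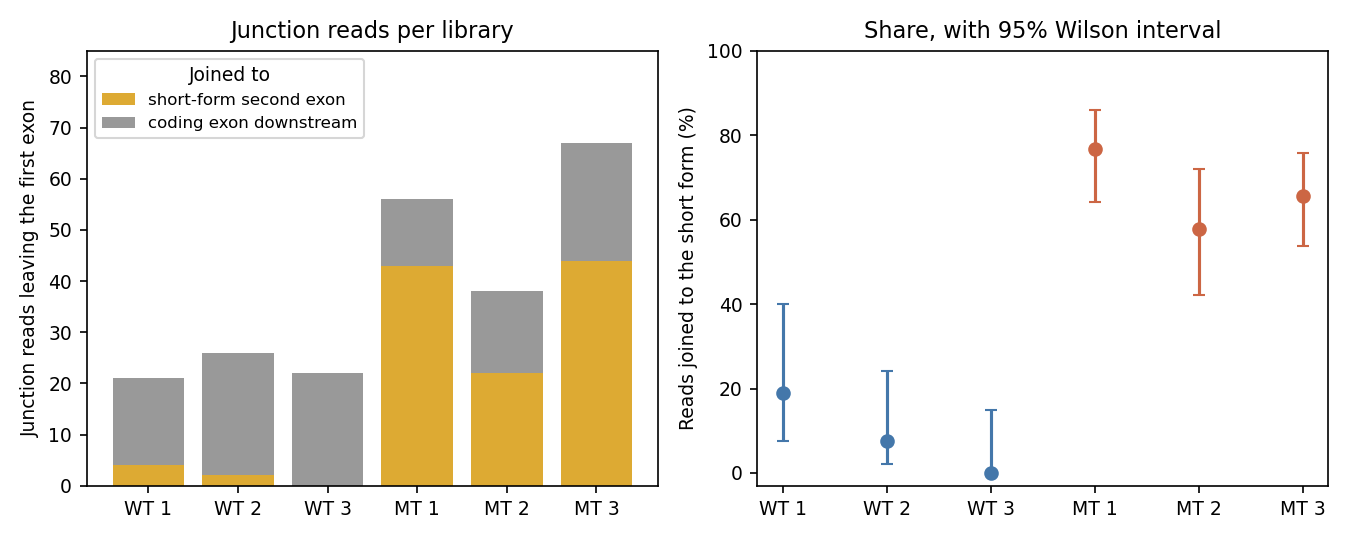
Left, junction reads that leave the COASY first exon in each HEK293T library, stacked by the exon they join; right, the percentage joined to the short-form second exon, with its 95% Wilson interval. The short form takes 22 to 44 reads in MT and 0 to 4 in WT, while reads to the coding exon number 13 to 24 across all libraries.

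The junction to the long form had 0 reads in all 6 libraries. With 69 reads leaving the first exon in WT, against 161 in MT, this allows a share of up to 4.35% in WT, against 1.86% in MT. The reads that the table counts as inclusion of the long form, 112, 110 and 65 in WT, against 33, 60 and 112 in MT, thus contained no read spliced to the annotated long-form acceptor. In the rMATS scheme the others are reads that run unspliced across 42562356, which unspliced RNA and the transcripts with an exon across the intron would give. Those sources cannot be told apart in this table.

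The reads were also set against a downstream exon of COASY, using the 112, 74 and 95 inclusion reads of the exon at chr17:42564983-42565047 in WT, against 70, 66 and 121 in MT. Per 100 of these, reads to the short form were 3.57, 2.7 and 0 in WT, against 61.4, 33.3 and 36.4 in MT, and the groups did not overlap. Reads counted as long-form inclusion were 100, 149 and 68.4 per 100 in WT, against 47.1, 90.9 and 92.6 in MT, and overlapped. Reads to the coding exon were 15.2, 32.4 and 23.2 per 100 in WT, against 18.6, 24.2 and 19 in MT, and also overlapped.

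For the retained intron, inclusion reads numbered 315, 212 and 159 in WT, against 88 and 115 in MT 1 and MT 2. The count of MT 3 had been run together with others in the deposited list. Its level of 0.725 and its 44 exclusion reads imply 232 inclusion reads (231 to 233 given the 3 decimals of the level), above WT 2 and WT 3, so the groups overlapped. Reads from the end of the second exon (42562487) on to the coding exon were few. They numbered 2, 6 and 0 in WT, against 6, 2 and 7 in MT, and overlapped. The short form, the long form and the retained intron form all end there, so these reads cannot be assigned to the short form.

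**Figure D3:**
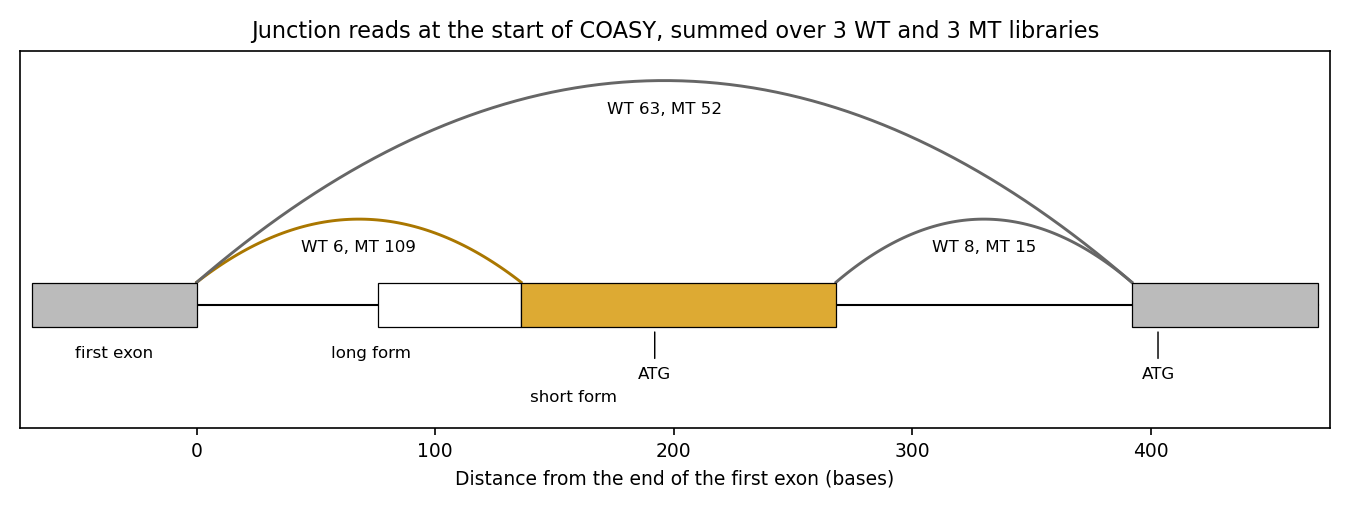
Map of the start of COASY in bases from the end of the first exon, with exons as boxes, annotated start codons marked ATG and arcs for splice junctions, each with its reads summed over the 3 WT and 3 MT HEK293T libraries. The junction to the short form has 6 reads in WT and 109 in MT, while the junction past it to the coding exon has 63 and 52.

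The rest of COASY showed smaller differences. The coding exon that starts at 42562612 was included at 1.000 in all WT libraries and at 1.000, 1.000 and 0.920 in MT, at 19.3 mean reads. The exon at chr17:42564709-42564898 had levels of 0.980, 0.957 and 0.954 in WT, against 0.964, 0.882 and 0.993 in MT. The exon at chr17:42564983-42565047 had levels of 0.943, 0.897 and 0.949 in WT, against 0.954, 0.866 and 0.935 in MT.

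For these 3 exons the groups overlapped or shared the level 1.000. The exon at chr17:42565471-42565568, the COASY event with the most reads (304), was included at 0.994 to 1.000 in every library. The exon at chr17:42563961-42564175 was included at 1.000 in all 6 libraries and so was not tested. The remaining COASY event had 3.5 mean reads and fell under the minimum.

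PANK1, PANK2, PANK3, PANK4 and PPCDC had 38 events listed, 34 with at least 10 reads and 33 tested. Of the 33, limma called 0 and gave 0 an unadjusted p under 0.05. A quasi-binomial test of junction counts, which could use 25, also called 0. Over all events, limma called 0.0311% and the count test 0.104%, so 0 calls among so few events do not set these genes apart. Their differences ran from -0.083 to 0.051, with a median size of 0.011 against 0.0137 over all events tested. PPCS had no event listed. At the read minimum, a PPCDC exon with 10.2 mean reads was the event just inside, and another with 6.08 was just outside.

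**Figure D4:**
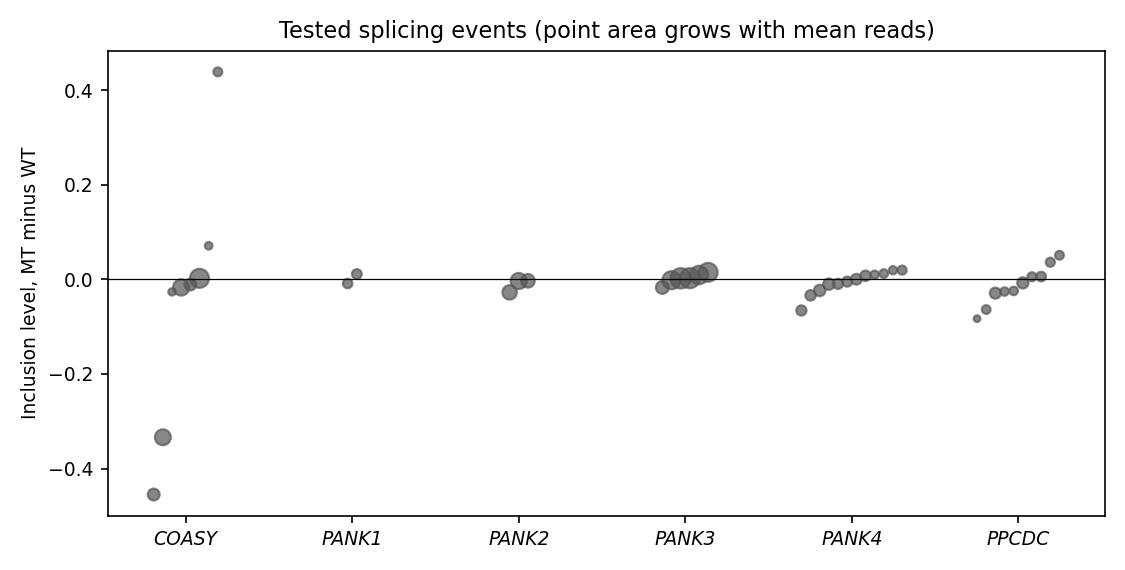
Difference in inclusion level, MT minus WT, for the 41 tested events of the coenzyme A synthesis genes, grouped by gene, with point area growing with mean reads. The 3 called COASY events stand at -0.455, -0.334 and 0.438, and events of the other genes lie between -0.083 and 0.051.

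PANK1, a kinase abundant in liver, had its largest difference and its most reads at the same exon, chr10:89611696-89612048, with levels of 1.000, 1.000 and 0.926 in WT, against 1.000, 1.000 and 0.959 in MT (limma adjusted p = 0.948). PANK2, the mitochondrial kinase, differed most at an alternative 5′ splice site with levels of 0.406, 0.478 and 0.483 in WT, against 0.430, 0.435 and 0.419 in MT (difference -0.028, limma adjusted p = 0.858). WT and MT overlapped in both genes. The PANK2 exon with the most reads (211), at chr20:3912458-3912634, was included at 0.979 to 1.000 in every library.

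PANK3, a cytosolic kinase, had the deepest event of all 7 genes. Its exon at chr5:168563889-168564065 had 354 mean reads and levels of 0.992, 0.985 and 1.000 in WT, against 1.000, 1.000 and 0.983 in MT (limma adjusted p = 0.856). Its largest difference, -0.017, was at a rarely used exon with levels of 0.014, 0.009 and 0.049 in WT, against 0.011, 0 and 0.009 in MT (limma adjusted p = 0.856). PANK3 thus had the same main exon in nearly all reads of both genotypes.

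PANK4 differed most at 2 exons listed as mutually exclusive, with levels of 0.581, 0.531 and 0.550 in WT, against 0.569, 0.405 and 0.490 in MT (difference -0.066, limma adjusted p = 0.856). With the other as its neighbour, however, 1 of these exons was included at 0.952 to 1.000 and the other at 0.971 to 1.000. The level is therefore not read as a choice between the exons. The exon of PANK4 with the most reads (91.4) had levels of 0.986, 1.000 and 1.000 in WT, against 1.000, 0.969 and 0.946 in MT (limma adjusted p = 0.856). The WT and MT libraries overlapped for the paired exons and for this exon.

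PPCDC had the largest difference among these genes at the exon with 10.2 mean reads, at 1.000 in 5 libraries and 0.75 in MT 3 (difference -0.083, limma adjusted p = 0.856). Without MT 3 the difference was 0. Its event with the most reads (86.2) had levels of 1.000, 0.972 and 1.000 in WT, against 1.000, 0.981 and 0.968 in MT (limma adjusted p = 0.856).

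One further PPCDC event, singled out after its values were seen, was the only event outside COASY whose groups did not overlap. These 2 exons, listed as mutually exclusive, had levels of 0.100, 0.136 and 0.122 in WT, against 0.160, 0.156 and 0.194 in MT, a difference of 0.0507 ± 0.016 (SE) at 42.1 mean reads (limma adjusted p = 0.856). With the other as its neighbour, however, 1 of them was included at 0.957 to 1.000 and the other at 0.968 to 1.000. The level is therefore not read as a choice between the exons. Over all events tested, 5.46% did not overlap between MT and WT, with MT above in 2.32% and below in 3.15%, so 1 of 33 events is near the background.

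Genes that use, carry or break down coenzyme A were examined as 7 lists of 60 genes, of which 43 were in the table and 39 had a tested event. Of their 293 tested events, limma called 0, and 12 had an unadjusted limma p under 0.05. A quasi-binomial test of junction counts, which could use 210, also called 0. Over all events the shares called were 0.0311% and 0.104%, so 0 calls do not set these genes apart. The groups did not overlap for 13 events (4.44%, against the 5.46% of all events), and the median size of difference was 0.014 against 0.0137.

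Within pantothenate uptake and recycling, 1 gene of 4 was in the table, SLC5A6, the sodium-dependent transporter that brings in pantothenate and biotin. Its exon at chr2:27206483-27206534 was included at 1.000 in all WT libraries and at 0.976, 0.952 and 0.873 in MT (difference -0.066, limma adjusted p = 0.532). In the coenzyme A degradation list, 1 of 11 events tested did not overlap (9.09%, against the 5.46% of all events). It was an alternative 3′ splice site of ENPP1, a pyrophosphatase, with 0.973, 0.882 and 0.917 in WT, against 1.000 in each MT library (limma adjusted p = 0.856). Neither difference passed the test.

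Of the 62 events of phosphopantetheine transfer and acyl carriers, 2 did not overlap (3.23%, against the 5.46% of all events). The larger was an exon of AASDH, an enzyme of the acyl-CoA synthetase family, with 0.931, 1.000 and 1.000 in WT, against 0.852, 0.2 and 0.8 in MT at 16.4 mean reads (limma adjusted p = 0.595). MT 2 was far below the other MT libraries. Of the 124 events of acyl-CoA synthetases, 3 did not overlap (2.42%). The largest was a retained intron of SLC27A1, a fatty acid transport protein, with 0.385, 0.217 and 0.5 in WT, against 0.714, 0.625 and 0.727 in MT at 10.2 mean reads (limma adjusted p = 0.856).

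Among 46 events of acyl-CoA binding proteins, 3 did not overlap (6.52%, against the 5.46% of all events). The largest was an exon of ACBD4 with 0.963, 0.947 and 0.963 in WT, against 0.857, 0.822 and 0.714 in MT (difference -0.16, limma adjusted p = 0.752). Among 25 events of acyl-CoA thioesterases, 3 did not overlap (12%), and 0 of the 25 had an unadjusted limma p under 0.05. The largest was a pair of exons of ACOT7 with 0.455, 0.448 and 0.456 in WT, against 0.480, 0.510 and 0.484 in MT (limma adjusted p = 0.856). The 15 events of the mitochondrial coenzyme A carriers all overlapped.

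Events whose levels varied across the 6 libraries most like those of COASY were sought within each event type. The measure was the root mean square distance between levels centred on each event's own mean, so the level itself was not matched. For the alternative 3′ splice site, the nearest of 5350 was in ANKHD1 (distance 0.066, against a median of 0.249), with 0.994, 0.978 and 0.987 in WT, against 0.511, 0.655 and 0.651 in MT. Events in HMBOX1 (0.097), ZNF561 (0.104) and TMEM91 (0.12 and 0.121) followed. For the retained intron, the nearest of 3513 were in STAT2 (0.05), ROBO3 (0.06), CPNE1 (0.064), HMG20B (0.067) and RPS15 (0.073), against a median of 0.183. The STAT2 means were 0.447 in WT and 0.160 in MT, against 0.985 and 0.651 for COASY. These distances describe the same 6 libraries and were not tested. Of the events named here, limma called only the one in ANKHD1.

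DRIP-Seq, which pulls down DNA:RNA hybrids, gave a separate readout of the same genes in Nalm-6 cells. Peaks that share at least 1 base with the gene were counted in each library. The paper called R-loop peaks bona fide by setting untreated samples against their RNase H1-treated pairs. That step was not applied here, so a counted peak is not shown to be a hybrid. COASY had 0 peaks in all 8 libraries, and also when the gene was extended by 3000 bp to each side. The nearest peak lay from 8832 to 122339 bp away. PANK4 likewise had 0 peaks in all 8 libraries.

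Over all 7 genes, 10 and 8 peaks were found in untreated WT, against 18 and 25 in untreated MT. After RNase H1 the numbers were 4 and 8 in WT, against 18 and 20 in MT. The whole peak lists differed in the same direction, where WT lists held 123841 and 131230 peaks before treatment and MT lists 254430 and 296808, and after treatment WT lists held 35091 and 77725 and MT lists 202148 and 199155. The part of list size in the gene counts was not tested, and no test was run on them, since an exact two-sided permutation test of 2 against 2 libraries cannot go below p = 0.333.

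In untreated DNA, PANK1 had 1 and 0 peaks for WT but 5 and 9 for MT, while PANK3 had 0 and 0 against 2 and 3. With the genes extended by 3000 bp, PANK1 had 3 and 3 peaks for WT but 6 and 10 for MT, and PANK3 was as before. After RNase H1, PANK3 had 0 and 0 peaks in WT, against 2 and 4 in MT, so MT also had PANK3 peaks after treatment. PANK2 had 2 and 2 untreated peaks for WT but 2 and 4 for MT.

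Untreated peaks over PPCS numbered 2 and 1 for WT but 3 and 2 for MT, and PPCDC had 5 and 5 against 6 and 7. Most PPCDC peaks lay beyond 75048721, where the last exon of its splicing events ends, within the annotated gene (chr15:75023586-75117462). For PANK2 and PPCS the WT and MT counts touched or overlapped. After RNase H1, PANK1 had 1 and 2 peaks for WT but 3 and 3 for MT, PANK2 had 0 and 0 but 3 and 2, PPCS had 0 and 2 but 2 and 3, and PPCDC had 3 and 4 but 8 and 8.

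**Figure D5:**
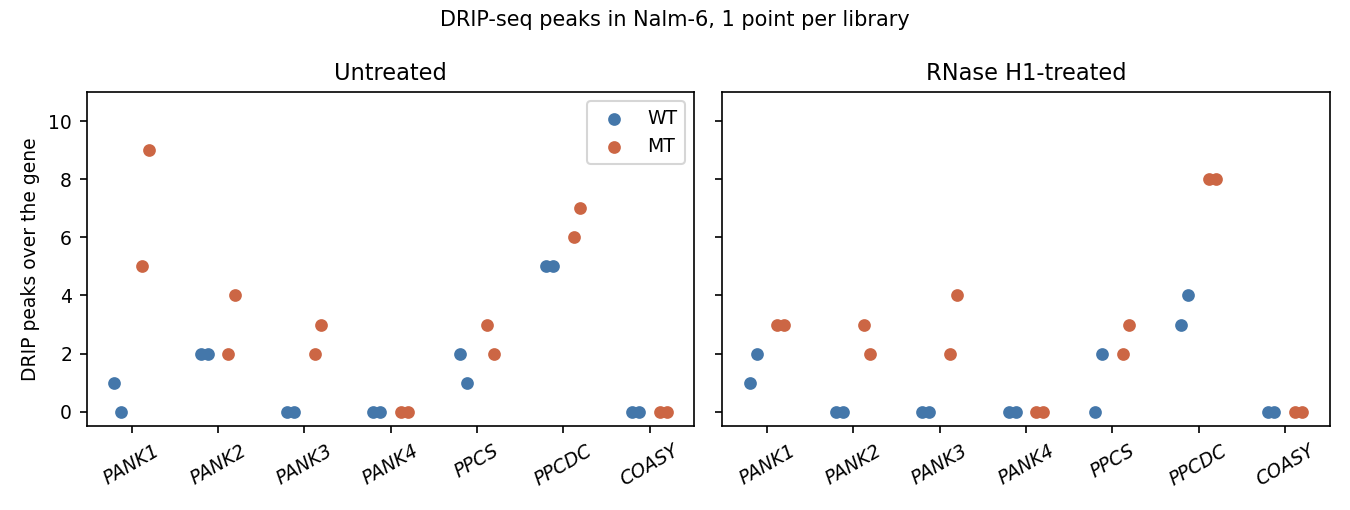
Number of DRIP-Seq peaks over each gene in Nalm-6 cells, 1 point per library, for untreated DNA (left) and RNase H1-treated DNA (right). COASY and PANK4 have 0 peaks in every library, and PANK1 and PANK3 have more peaks in untreated MT than in untreated WT.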

How the data were processed

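Groups follow the labelled genotype and treatment. The members and gene lists were chosen with earlier results of these data known. For RNA-Seq, the authors adopted the rMATS model, and the submitters' processing notes name STAR, StringTie and GRCh38. The deposited inclusion level is a fraction, the authors' inclusion reads per form length over the sum of both forms. The table lists 6 MT values per event and has columns for 3, which equal the first, second and sixth value. These columns were used as MT 1, MT 2 and MT 3 in column order, and their identity with the labelled MT samples is not settled. The authors averaged MT reads over all 6 values. The authors' own p-values, adjusted p-values and level differences were deposited too and were not used.

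Levels were compared with limma 3.58.1 under R 4.3.3 after an arcsine square-root transform, with a variance trend on log mean reads and Benjamini-Hochberg adjustment over 83581 events; 10424 with the same level in all 6 libraries were left out. Calls needed an adjusted p under 0.05 and a difference above 0.1. The code was tested on simulated data. Junction counts were read from the deposited lists where they gave the level within 0.0015, and summed to between 4000681 and 5364717 reads per library over 89049 events. Some lists were run together, so the quasi-binomial count test is only an added alternative. Every COASY event was named; for the other synthesis genes, the largest difference and the most reads; for the lists, every called event and the largest non-overlapping one; and the 5 nearest events by likeness. Coordinates, 1-based, were matched to GENCODE release 44 and hg38.

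For DRIP-Seq, the authors aligned reads with BWA-MEM to GRCh38, removed duplicates and mitochondrial reads, and called MACS2 peaks per library. The deposited lists give the authors' fold enrichment, a ratio over the local background, with no read totals, so the depth is unknown. Alternatives were a logit transform, other read and difference minimums, no variance trend, each library left out, a replicate block, medians and other peak limits.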

Additional observations from a re-analysis of the deposited data

How the results depend on the processing

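The count of calls depended on the settings. The differences of the 3 called COASY events kept their direction with each library left out and with medians. Since their MT and WT libraries do not overlap, no other outcome was possible, and nothing is read from it. Of all events, 26 were called, against 0 with the logit of the level, 0 without the variance trend, 17 with a minimum of 50 reads and 64 by the quasi-binomial test of junction counts, which was added after seeing the data. Leaving out 1 library gave 3 to 13 calls. For the coenzyme A synthesis genes, 3 events were called, against 0 with the logit, 0 without the trend, and 0 to 2 with 1 library left out. The count was 0 without MT 1, without MT 2 or without WT 3, and 2 without any other library or with a minimum of 50 reads, the alternative 3′ splice site and the retained intron. The quasi-binomial test called 2, the alternative 3′ splice site and the short-form exon. It could not be run on the retained intron, whose MT 3 inclusion count was not intact. The other coenzyme A genes had 0 calls throughout. With 1 library left out, the COASY difference ranged from -0.508 to -0.356 for the alternative 3′ splice site, from -0.371 to -0.261 for the retained intron and from 0.38 to 0.492 for the short-form exon, and the share joined to the short form differed by 52.87 to 62.938 percentage points. The untreated DRIP difference between MT and WT, 12.5 peaks, was 9.5 at a fold enrichment of at least 4, 10.5 with the genes extended by 3000 bp, and 9 to 16 with 1 library left out. The cause of the changes in count was not tested. With the column number as a replicate block, 12 events were called in all and 2 in the synthesis genes, the alternative 3′ splice site and the retained intron. Deviations of same-numbered WT and MT columns correlated at 0.1, 0.097 and 0.027 over events, and every column correlated best with its own number, but the third MT column holds the sixth listed value and the numbers were not taken to pair the libraries.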
